A study of Homo sapiens with 4 samples.

Results

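Open chromatin on both arms of chromosome 9 was examined in ME-1 cells, an established human leukaemia line that carries inv(16), the rearrangement that fuses CBFB to MYH11. The peaks are those that the 4 deposited lists place on chromosome 9 of hg19, leaving out chr9:38000000-71000000 around the centromere. There were 6359 such peaks among 228872 on the autosomes over all lists, with 1883 in DMSO replicate 1, 1787 in DMSO replicate 2, 1273 in AI-10-49 replicate 1 and 1416 in AI-10-49 replicate 2. Where 4 values follow each other below, they are in this order of libraries. Cells of this 1 line received the solvent DMSO or 1 µM AI-10-49, a small molecule that keeps the fusion protein CBFβ-SMMHC off RUNX1, for 6 h, with 2 libraries per treatment. All 4 libraries share the fusion, and the labels give no karyotype beyond inv(16). Chromosome 9 was chosen because these same lists hold few peaks there, so its number of peaks and their heights against other chromosomes are a description without a test.

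ATAC-seq marks open DNA by inserting sequencing adapters with the Tn5 transposase, and a peak is a site where the inserted fragments pile up over the local background. The number of reads at a site depends on how open the site is, on how many copies of it the cells carry and on how deeply the library was sequenced. A peak list keeps only the sites that pass a threshold, so a segment with fewer reads at every site loses its weakest sites from the list while its strongest sites stay with lower counts. Loss of material from the long arm of chromosome 9 is a recurrent finding in acute myeloid leukaemia, including leukaemias of core binding factor, the complex to which RUNX1 and CBFβ belong. The short arm carries CDKN2A, a cell cycle inhibitor gene often lost in leukaemia, and JAK2, the kinase of many cytokine receptors.

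Reads at a summit were few, and the lists of the treatments differed in background and in lowest reads. Reads at a summit and the local background, the reads expected there without a peak, were recovered from the fold and p-value that the authors' peak caller gave each peak. The most frequent local background was 0.0613, 0.06, 0.0965 and 0.108 reads. The lowest number of reads at a summit was 2 in the DMSO and 3 in the AI-10-49 lists, and the median was 5 and 7. Chromosomes 7, 10 and 12, with their centromeres left out, served as the comparison, with 9745, 9381, 6883 and 7599 peaks. Over 1 Mb bins that hold a peak, chromosome 9 had the lowest number of peaks per Mb of the 22 autosomes in all 4 lists, at 17.4, 16.5, 11.8 and 13.1. The next autosome was at 19 (chromosome 13), 18.4 (chromosome 21), 12.9 (chromosome 13) and 14.2 (chromosome 4).

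Both arms were below the comparison in number of peaks, and the long arm was below it in height as well. The short arm, 38 Mb long, held 19.7 and 19.9 peaks per Mb under DMSO and 13.6 and 15.4 under AI-10-49. The long arm, taken from 71 Mb to the last peak, held 16.3 and 14.8 peaks per Mb under DMSO and 10.8 and 11.9 under AI-10-49. Both arms lay below each of the 6 arms of chromosomes 7, 10 and 12 in every list, where the lowest, the long arm of chromosome 12, had 22.4, 21.4, 15.7 and 17.8. Relative to the 3 comparison chromosomes together, the long arm stood at 66.9% ± 2.74 (SD, n = 2) of their peaks per Mb under DMSO and at 64.7% ± 0.140 (SD, n = 2) under AI-10-49. The short arm stood at 85.4% ± 2.94 and 82.6% ± 1.32 (SD, n = 2 each). RefSeq (GRCh38.p14) lists 778 protein-coding genes on chromosome 9, more than the 734 of chromosome 10 and fewer than the 938 of chromosome 7 and the 1024 of chromosome 12. Chromosome 9 as a whole had 2.49, 2.37, 1.69 and 1.87 peaks per protein-coding gene in the 4 lists, the lowest of the 4 chromosomes. Chromosome 12 was next with 3.02, 2.90, 2.16 and 2.39, and chromosome 10 was highest with 4.18, 4.05, 2.93 and 3.21.

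Peaks with many reads were scarce on the long arm and not on the short arm. Peaks with at least 10 reads at the summit numbered between 44 and 160 on the long arm. Per Mb that was 1.304, 0.631, 1.73 and 2.29, where the lowest of the 6 comparison arms had 3.37, 2.63, 4.16 and 5.09. On the short arm 140, 123, 164 and 193 peaks had that many reads, or 3.68, 3.24, 4.32 and 5.08 per Mb. The short arm thus lay within the range of the comparison arms in 3 lists and marginally below it in AI-10-49 replicate 2. The long arm fell further behind the higher the peaks. At 2 reads or more it had 68.8% and 64.9% of the comparison's peaks per Mb in the DMSO lists, at 5 or more 53.1% and 48.9%, at 10 or more 33.3% and 20.2%, and at 20 or more 6.03% and 3.30%, the last from 3 and 1 peaks. In the AI-10-49 lists the same arm went from 64.8% and 64.6% at 3 reads or more to 37.3% and 39.4% at 10 or more and 19.8% and 18.3% at 20 or more. The short arm took the other course: from 83.3%, 87.5%, 81.7% and 83.5% in the full lists it stood at 94.2%, 104%, 92.7% and 87.3% for peaks of at least 10 reads.

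**Figure D1:**
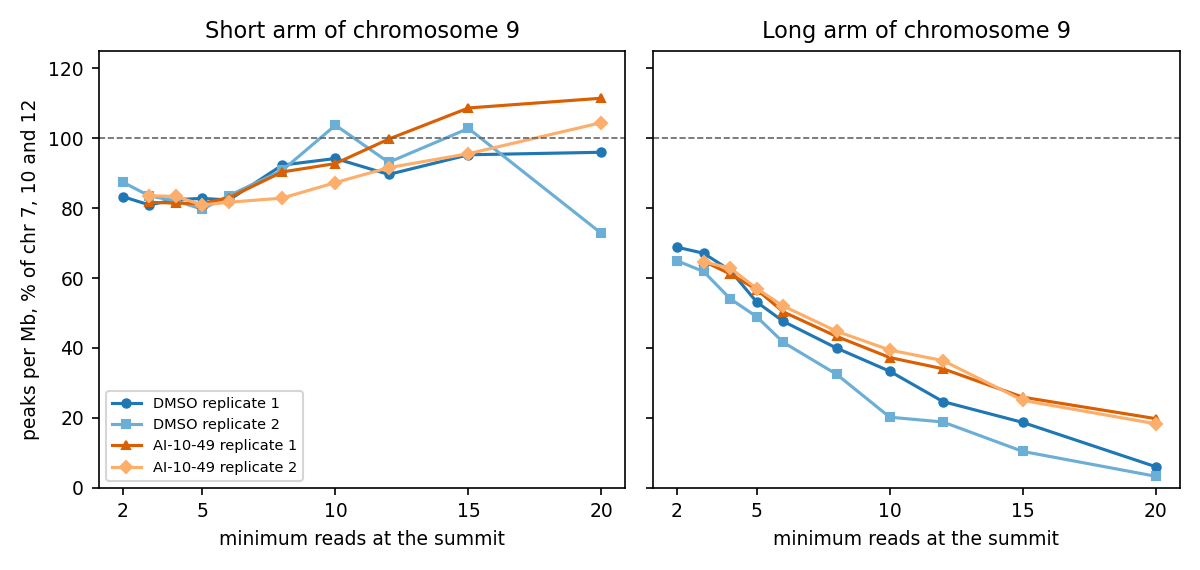
Peaks per Mb of the short arm (left) and long arm (right) of chromosome 9 as percent of chromosomes 7, 10 and 12, against the minimum reads at the summit, 1 line per library. The long arm falls from between 64.6% and 68.8% in the full lists to between 20.2% and 39.4% at 10 reads, while the short arm stays between 79.7% and 111.4%, apart from 72.7% at 20 reads in DMSO replicate 2.

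Heights were then compared at equal density of sites, so that the length of the list does not enter. On the long arm the strongest 2 sites per Mb, 140 in all, had 11.3 and 9.43 reads on average under DMSO and 13.4 and 14.8 under AI-10-49. On the short arm the strongest 2 sites per Mb had 19.3, 16.4, 23.6 and 25.7 reads. The short arm of chromosome 12 was the lowest comparison arm, with 17.2, 14.7, 21.9 and 24.5 reads, so the long arm of chromosome 9 lay below all 6 comparison arms in every list and the short arm within them. Against the pooled comparison the long arm had 57.4% and 56.1% of the reads under DMSO (mean 56.7% ± 0.861, SD, n = 2) and 57.4% and 56.3% under AI-10-49 (mean 56.9% ± 0.753, SD, n = 2). The short arm had 98.0% and 97.4% under DMSO (mean 97.7% ± 0.458, SD, n = 2) and 101.3% and 97.6% under AI-10-49 (mean 99.4% ± 2.58, SD, n = 2). By single ranks the long arm was again the lowest. The site at rank 1 per Mb had 10 and 9 reads on the long arm under DMSO, against 18 and 15 in the comparison and 17 and 15 on the short arm. With AI-10-49 that rank had 12 and 13 reads on the long arm, 20 and 23 in the comparison and 22 and 24 on the short arm.

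**Figure D2:**
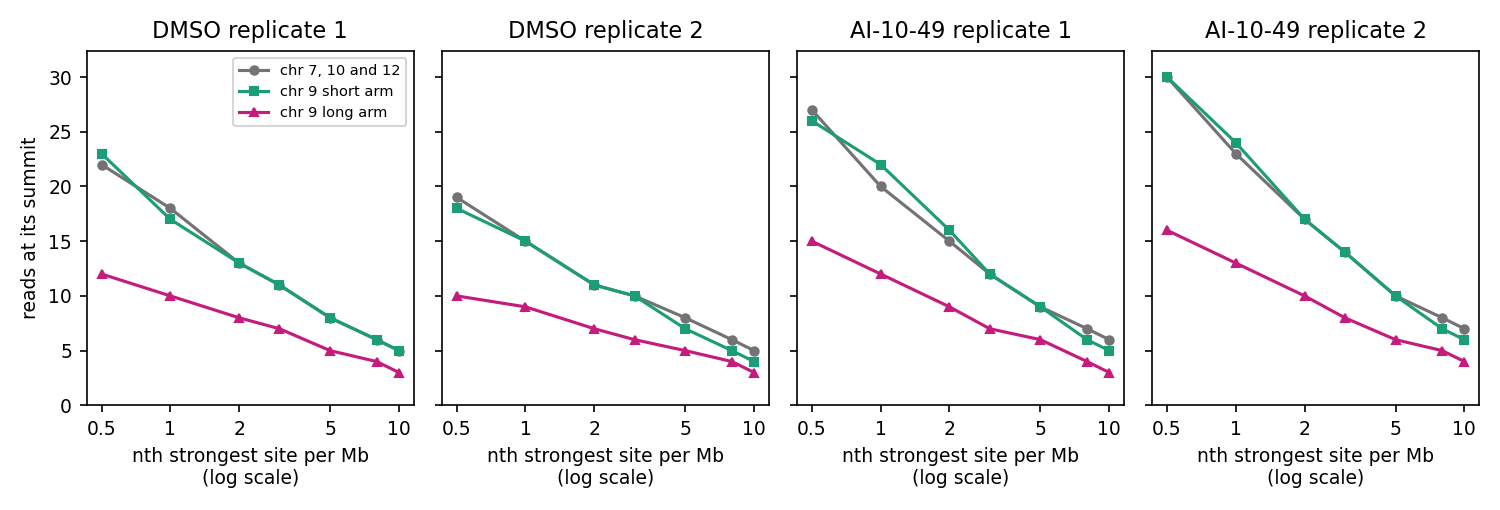
Reads at the summit of the nth strongest site per Mb (n on a log axis, reads on a linear one) in each library, for the short arm and the long arm of chromosome 9 and for chromosomes 7, 10 and 12. The short arm runs with the comparison at the strongest sites, and at rank 10 has 5, 4, 5 and 6 reads against 5, 5, 6 and 7. The long arm lies below both at every rank plotted, for example at 10 reads against 17 and 17 for rank 2 in AI-10-49 replicate 2.

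Strong sites picked from their own counts are partly chosen for chance excess, so the heights were also read in the replicate that did not pick the sites. The 140 strongest long arm sites of DMSO replicate 1 had 7.64 reads on average in DMSO replicate 2, with sites not listed there counted as 0, against 14.9 at the 825 comparison sites. The ratio was 0.511, and in the opposite direction it was 0.503. Between the AI-10-49 replicates the ratios were 0.535 and 0.533. Leaving unlisted sites out, they were 0.533 and 0.533 under DMSO and 0.535 and 0.557 under AI-10-49. On the short arm the same ratios, with unlisted sites as 0, were 0.987, 0.954, 0.976 and 1.03.

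A segment with 1 copy where the comparison has 2, and otherwise alike, would have 50% of the reads at each site. The long arm values within a library were 56.1% to 57.4%. They come from sites picked by their own counts, where chance excess weighs more at low counts, so they cannot be set directly against 50%. The ratios read in the other replicate were 0.503 to 0.535 with unlisted sites as 0 and 0.533 to 0.557 over listed sites. Of the long arm's sites 94.3% to 100% were listed in the other replicate and of the comparison's at least 99.03%, so counting them as 0 lowers the long arm more. If every count were exactly 50%, sites reaching a list's threshold would be those with at least 2 times that number in the comparison. Counts this low do scatter, and whether a site is listed also depends on its local background. The densities that follow are therefore a description and cannot decide whether 50% holds. The comparison had 15.9 and 14.9 peaks per Mb with at least 4 reads in the DMSO lists, where the whole long arm list, from 2 reads on, had 16.3 and 14.8. In the AI-10-49 lists the comparison had 10.6 and 12.2 peaks per Mb with at least 6 reads, and the long arm 10.8 and 11.9 from 3 reads on. Away from the threshold of the lists the numbers lay further apart. With at least 5 reads the long arm had 6.71, 5.59, 7.32 and 8.34 peaks per Mb, and the comparison with at least 10 reads had 3.91, 3.12, 4.65 and 5.82. With at least 10 reads the long arm had 1.304, 0.631, 1.73 and 2.29 peaks per Mb, and the comparison with at least 20 reads had 0.713, 0.434, 1.09 and 1.49. The short arm, with 19.7, 19.9, 13.6 and 15.4 peaks per Mb, lay above the comparison at the doubled threshold in all 4 lists. Peak lists alone do not give copy number, the copy number of chromosomes 7, 10 and 12 was not measured either, and fewer copies of the arm and less open chromatin on each copy cannot be told apart in these data.

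The local background that the peak caller set at each peak was also lower on the long arm. Its median was 0.0843, 0.0847, 0.1501 and 0.166 reads, below the lowest comparison arm, which had 0.104, 0.0978, 0.188 and 0.208. On the short arm it was 0.104, 0.0912, 0.202 and 0.215. The background cannot go below a common floor in a list. At that floor sat 30.3%, 33.6%, 24.2% and 22.3% of long arm peaks and 21.1%, 23.1%, 10.8% and 14.4% of short arm peaks. The highest comparison arm had 22.1%, 22.7%, 12.2% and 13.4%, so the short arm was above it in replicate 2 of each treatment. Since the background near a peak contains the reads of the peak, peaks of like height were compared next. Among peaks with 4 or 5 reads, 22%, 21.7%, 36.3% and 34.7% of the long arm sat at the floor, against 12.3%, 12.1%, 20.3% and 23.4% of the comparison. The short arm gave 13.7%, 18.2%, 20.9% and 31.8% in that class, above the comparison in each list but below the long arm. Other classes were less even for the short arm. With 2 or 3 reads it was below the comparison in DMSO replicate 2, at 47.1% against 49.9%. With 6 to 9 reads it was below in AI-10-49 replicate 2, at 7.49% against 8.08%. In the other lists of these classes it was above.

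Along the chromosome, every segment of the long arm had low peaks. The arms were divided into windows of 10 Mb, 4 on the short arm, the last of 8 Mb, and 7 on the long arm from 71 Mb on, the last one ending at the last peak, at 140779238. For the strongest 2 sites per Mb, each of the 7 long arm windows lay below the lowest of 41 windows of chromosomes 7, 10 and 12 in each of the 4 lists. The long arm windows ranged from 9.60 to 12.2 reads in DMSO replicate 1, where the comparison windows ranged from 14.1 to 26.0. In DMSO replicate 2 the ranges were 8.30 to 10.4 and 12.5 to 21.7, in AI-10-49 replicate 1 they were 11.4 to 15.4 and 16.5 to 32.6, and in AI-10-49 replicate 2 they were 12.9 to 17.5 and 19.1 to 38.3. Short arm windows spread from 15 to 22.2 reads in DMSO replicate 1 and from 18.1 to 32.9 in AI-10-49 replicate 2. By number of peaks the long arm windows did not stand apart in this way. All 7 were below the median comparison window under DMSO and 6 of 7 under AI-10-49, and none was below the lowest comparison window in the mean of either treatment. In single lists 1 of them was, the second window in DMSO replicate 2, at 10.6 peaks per Mb against 11.2.

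**Figure D3:**
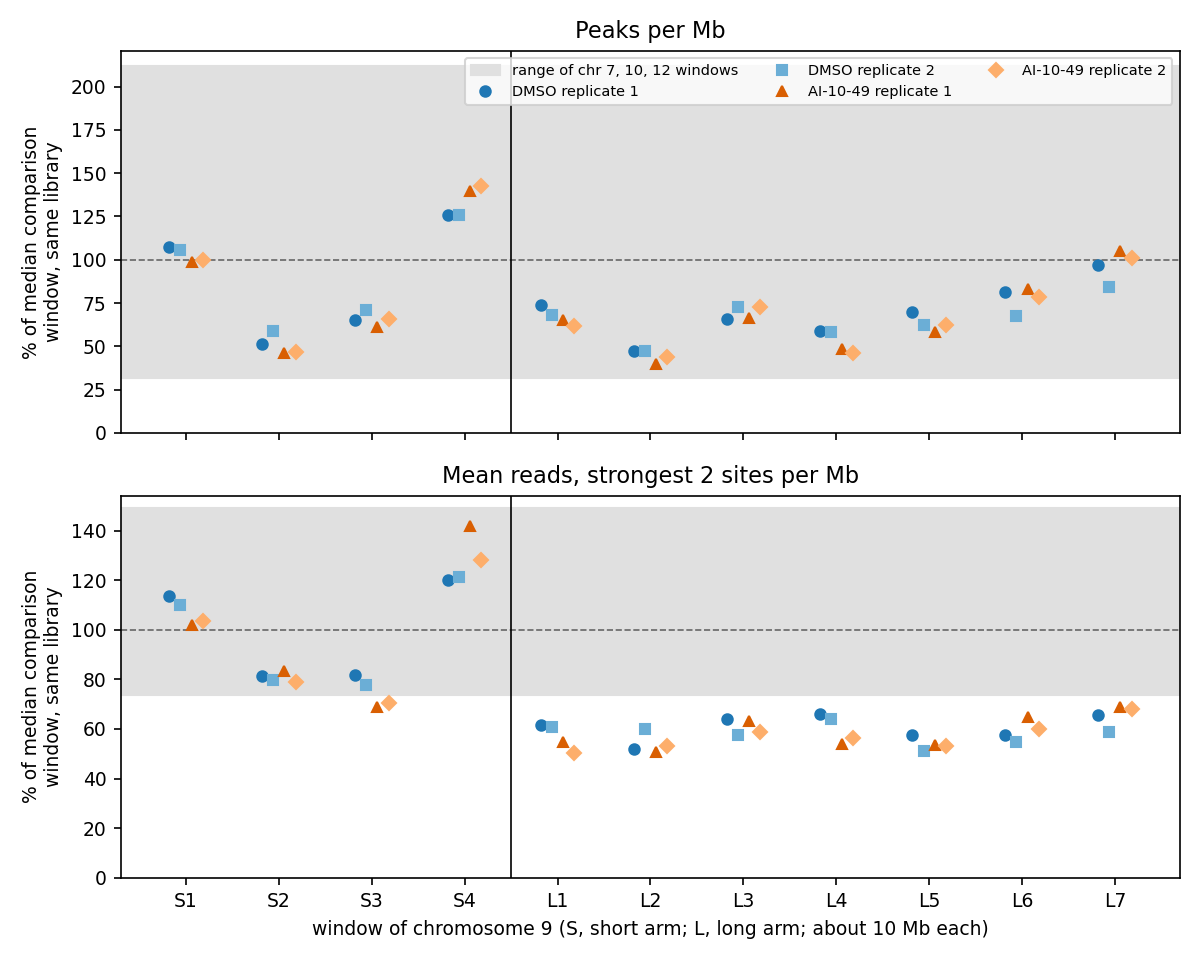
Peaks per Mb (top) and mean reads of the strongest 2 sites per Mb (bottom) in the 4 short arm windows (S1 to S4) and the 7 long arm windows (L1 to L7) of chromosome 9, as percent of the median window of chromosomes 7, 10 and 12 in the same library; points are libraries and the grey band is the range of the comparison windows over all libraries. Long arm heights lie between 50.3% and 68.8%, under the band, and long arm peak numbers between 39.9% and 105%, within it.

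The first short arm window, from the start to 10 Mb, is where JAK2 and SMARCA2, an ATPase of chromatin remodelling complexes, lie. It had 24.8 and 23.7 peaks per Mb under DMSO and 16.1 and 17.9 under AI-10-49, or 98.8% to 107% of the median comparison window. The fourth, from 30 to 38 Mb, which holds the B cell factor gene PAX5, was the richest of the chromosome with 29.0, 28.3, 22.8 and 25.5 peaks per Mb. Its strongest 2 sites per Mb had 120% to 142% of the reads of the median comparison window. Between them lay the poor part of the short arm. The second window, from 10 to 20 Mb, with the transcription factor gene NFIB, had 11.8, 13.3, 7.5 and 8.40 peaks per Mb. The third, from 20 to 30 Mb, with CDKN2A and MLLT3, a fusion partner of KMT2A in leukaemia, had 15, 16, 10 and 11.8. Heights in these 2 windows were 79.1% to 83.3% and 69.0% to 81.6% of the median comparison window, within the comparison range except for the third window in both AI-10-49 lists. By number of peaks, 2 of the 4 short arm windows were thus poor in all lists and the other two were near or above the median.

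On the long arm the poorest window was the second, from 81 to 91 Mb, where TLE1 and TLE4, corepressors that bind RUNX proteins among others, and HNRNPK, an RNA-binding protein gene, lie. It had 10.9 and 10.6 peaks per Mb under DMSO and 6.50 and 7.80 under AI-10-49, 39.9% to 47.2% of the median comparison window. Next was the fourth window, with the nuclear receptor gene NR4A3 and KLF4, a factor of monocyte differentiation, at 13.6, 13.1, 7.90 and 8.30. The first window (GNAQ and ANXA1), the third (the kinase gene SYK and the Hedgehog receptor gene PTCH1) and the fifth (the endotoxin receptor gene TLR4) had 14.0 to 17.0 peaks per Mb under DMSO and 9.50 to 13.0 under AI-10-49. The sixth, with PBX3, a partner of HOX proteins, and ENG, a co-receptor of TGF-β ligands, had 18.8, 15.2, 13.5 and 14.0. The last window, with ABL1, NOTCH1 and the haematopoietic repressor gene GFI1B, was the richest of the long arm, with 22.4, 19, 17.1 and 18.1 peaks per Mb, 84.5% to 105% of the median comparison window. Its heights were nonetheless low, with 12.1, 9.50, 15.4 and 17.5 reads at the strongest 2 sites per Mb, or 58.6% to 68.8% of the median comparison window. Over all long arm windows and lists, number ran from 39.9% to 105% of the median comparison window and height from 50.3% to 68.8%. Genes are named at the scale of a whole window from general knowledge, and none was assigned to a peak.

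No 10 Mb window of either arm was empty. The longest stretches without a peak in any list were chr9:120588614-121283692, chr9:117881443-118548373 and chr9:118548446-119210323, of 0.695, 0.667 and 0.662 Mb. All 3 were on the long arm, in the window of TLR4. The last 2 were parted by 1 merged region, and the longest reached into the next window. Longer stretches occurred in the comparison, up to 0.835 Mb on the long arm of chromosome 12 and 0.742 Mb on the short arm of chromosome 10.

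Few windows elsewhere in the genome had strong sites as low as those of the long arm. Of 255 windows of the other autosomes, the number below the highest long arm window was 10 and 7 in the DMSO lists and 15 and 13 in the AI-10-49 lists. In all 4 lists 6 windows (2.35%) were at or below it, 3 of them on chromosome 2 and 1 each on chromosomes 5, 16 and 17. The 7 long arm windows of chromosome 9 set this limit. The windows of chromosome 2 at or below it started at 180, 210 and 220 Mb, within a longer low stretch. From the window starting at 180 Mb to that starting at 230 Mb, values were 8.30 to 14.1 reads in DMSO replicate 1. The median of the 255 windows in that list was 19.9.

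**Figure D4:**
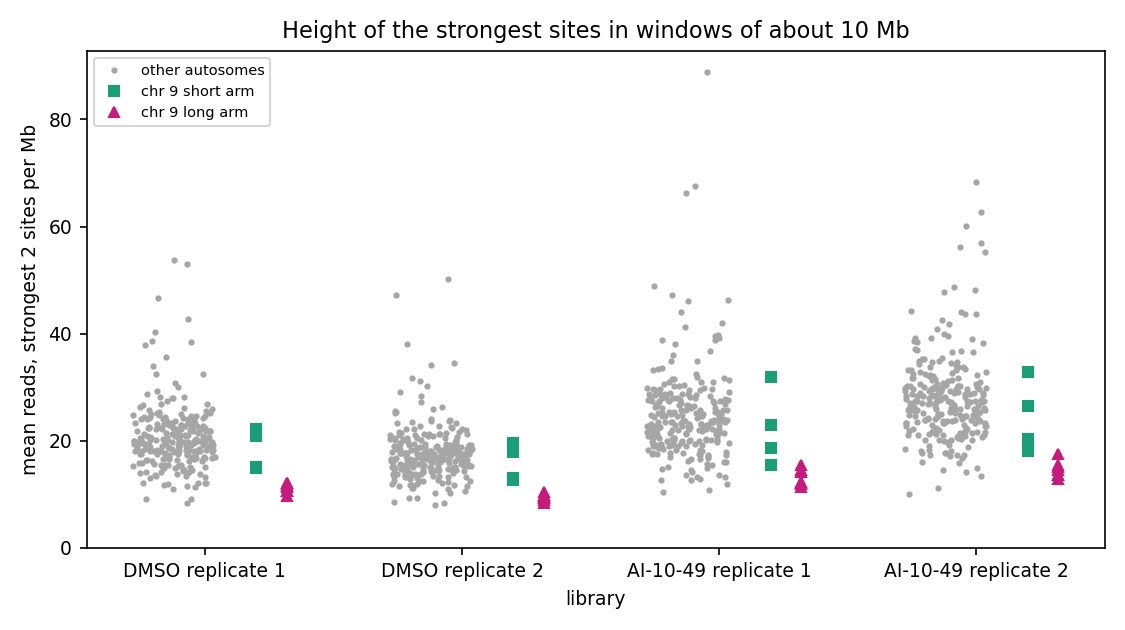
Mean reads of the strongest 2 sites per Mb in windows of about 10 Mb, by library; grey points are the 255 windows of the other autosomes, squares the short arm and triangles the long arm of chromosome 9. The 7 long arm windows sit at the low edge in each library, for example at 8.30 to 10.4 reads in DMSO replicate 2, where the median of the other autosomes is 17.4.

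The strongest sites listed in all 4 libraries show the same contrast. On the short arm chr9:4792615-4793073 was the strongest, with 37 and 28 reads at the summit under DMSO and 49 and 46 under AI-10-49. It was followed by chr9:19184287-19184525, with 32, 22, 35 and 35 reads, and chr9:35657751-35658026, with 27, 29, 48 and 35. After these came chr9:21591697-21591923, with 24, 25, 27 and 29 reads, and chr9:36190569-36190973, with 27, 15, 37 and 42. The lowest percentile of any of these 5 sites in any list, by p-value, was 97.17. On the long arm 1 site came near them, chr9:104160838-104161205, with 30 and 23 reads under DMSO and 29 and 27 under AI-10-49. The next were chr9:97021469-97021651, with 19, 12, 22 and 17 reads, and chr9:111882170-111882511, with 14, 12, 21 and 20. Then came chr9:96928203-96928533, with 16, 12, 24 and 23 reads, and chr9:79071173-79071495, with 14, 14, 18 and 21. The last of these long arm sites had fewer reads than the last of the short arm sites in all 4 libraries.

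Replicates shared a smaller part of long arm peaks than of comparison peaks in all 4 lists. Of the long arm peaks of DMSO replicate 1, 54.4% (95% exact interval 51.4 to 57.3%) overlapped a peak of DMSO replicate 2 by at least 1 bp, against 62.8% (59.3 to 66.3%) on the short arm and 61.6% (60.6 to 62.6%) in the comparison. For AI-10-49 replicate 1 in replicate 2 the shares were 69.3% (65.8 to 72.5%), 78.8% (75.0 to 82.2%) and 76.6% (75.6 to 77.6%). In the opposite direction the long arm was nearer to the comparison under DMSO. Of peaks of DMSO replicate 2, 59.7% on the long arm, 62.3% on the short arm and 63.9% in the comparison were in replicate 1, and of those of AI-10-49 replicate 2 it was 62.5%, 69.6% and 68.9%. Intervals cover counting error only. For peaks of replicate 1 over both arms, the difference from the comparison was -3.87 percentage points (DMSO) and -3.49 (AI-10-49). Within classes of reads it was -0.266 and 0.0513 percentage points, again over both arms together. On the long arm alone, peaks with 4 or 5 reads were in the other replicate in 55.4%, 68.9%, 51.6% and 44% of cases, against 59.8%, 65.6%, 58.3% and 43.4% in the comparison, below it for the first replicates and above it for the second. Of long arm peaks of replicate 1 with 10 to 19 reads, 100% of 88 (DMSO) and 100% of 106 (AI-10-49) were in replicate 2. The comparison had 97.1% and 98.4%. Of long arm peaks with 2 or 3 reads in DMSO replicate 1, 30.3% of 445 were in replicate 2, against 30.5% in the comparison. In the opposite direction, 94.3% of 141 long arm peaks with 10 to 19 reads in AI-10-49 replicate 2 were in replicate 1, against 96.0%.

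The share of peaks on chromosome 9 was compared between the treatments over libraries. Both arms together made up 2.87% and 2.82% of autosomal peaks under DMSO (mean 2.84% ± 0.0359, SD, n = 2) and 2.67% and 2.72% under AI-10-49 (mean 2.69% ± 0.0358, SD, n = 2). The groups did not overlap, and the difference was -0.153 percentage points (two-sided exact permutation p = 0.333, the smallest that 2 against 2 libraries allow; adjusted p = 0.583 over 7 quantities). This direction turned, to 0.114 percentage points, when peaks of at least 5 reads were taken in every list. Height on the long arm, as percent of the comparison, differed between the treatments by 0.113 percentage points (exact permutation p = 0.667), and the groups overlapped. The low height of the long arm was present in treated and untreated cells alike.

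Sites listed under one treatment only made up a larger part of the regions on the long arm than on the short arm. Merging the 4 lists gave 1781 long arm and 1157 short arm regions, of which 361 (20.3%) and 325 (28.1%) were listed in all 4 libraries, against 28.1% in the comparison. Of 615 long arm regions in both DMSO libraries, 124 were in no AI-10-49 list, or 20.2% (95% exact interval 17.1 to 23.6%), where the share over all autosomes was 11.7%. The short arm had 61 of 469, or 13.0% (10.1 to 16.4%). Of 519 long arm regions in both AI-10-49 libraries, 45 were in no DMSO list, or 8.67% (6.39 to 11.4%), with 5.35% over all autosomes, and the short arm had 20 of 404, or 4.95% (3.05 to 7.54%). Both long arm shares lay above those of all autosomes, and both short arm shares lay near them. The intervals cover counting error over regions only, not the spread between the 2 libraries of a treatment. Regions in all 4 lists had 7.43, 6.42, 8.73 and 9.62 reads on average on the long arm and 10.2, 8.96, 11.7 and 12.9 on the short arm, and the part of these lower reads in the shares was not tested. With at least 5 reads in every list, 4.32% of chromosome 9 regions in both DMSO libraries were in no AI-10-49 list, against 4.17% over all autosomes. In the other direction it was 14.8%, against 10.4%. Under the other 3 limits on the lists, the share of chromosome 9 was above that of all autosomes in both directions. For DMSO it was 8.65% against 6.397% with −log10 q of 5 or more, 11.96% against 7.49% in lists of equal length and 24.2% against 16.9% from 60 times the background on.

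Over both arms 185 regions (17.1% of 1084, against 11.7% over all autosomes) were held by DMSO only and 65 (7.04% of 923, against 5.35%) by AI-10-49 only. These counts rested on each library: leaving out DMSO replicate 1 or 2 gave 689 and 696 for DMSO and 172 and 130 for AI-10-49, and leaving out AI-10-49 replicate 1 or 2 gave 266 and 317, and 244 and 202, since 1 library then decides presence or absence. The DMSO shares were then 38.8%, 37.3%, 24.5% and 29.2%, against 33.8%, 32.8%, 18.4% and 22.2% over all autosomes. Those for AI-10-49 were 18.6%, 14.1%, 17.4% and 16.1%, against 15.1%, 11.8%, 15.8% and 13.98%. The strongest region held by DMSO only was chr9:114384330-114384434, with 10 and 6 reads, followed by chr9:74219524-74219612, with 5 and 7, and chr9:2116218-2116381, with 5 and 5. For AI-10-49 only they were chr9:19127428-19127643, with 9 and 12 reads, chr9:135230289-135230421, with 11 and 9, and chr9:86322791-86322954, with 8 and 8. Of each set of 3, 2 lay on the long arm, which held 124 of the 185, 45 of the 65 and 1781 of all 2938 regions. Sets of 3 are too small to show where such regions gather.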

How the data were processed

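Per the labels, ATAC-seq was done on ME-1 cells after 6 h with DMSO or 1 µM AI-10-49, 2 libraries each, described as independent experiments. The authors deposited 1 narrowPeak list per library on hg19. Tools listed in the submitters' processing notes are MACS2 2.1.0, Picard 1.96, cutadapt 1.3, deepTools and Bowtie2. How each was set, and how many reads each library had, is not given in the sources used here. Every peak deposited by the authors carries a fold enrichment (a ratio), a −log10 p-value, a −log10 q-value and an integer score, which was not used.

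Rows on chromosomes 1 to 22 with the same coordinates were collapsed into the one with the highest −log10 p. Reads k at a summit and the local background λ were solved from fold = (k + 1)/(λ + 1) and p = P(X > k) under a Poisson model, with a tolerance of 0.001 on −log10 p; at most 1 peak per list had no solution. This step was tested on simulated data. Such low counts limit the precision of single sites. A peak belonged to the arm that held its midpoint. Intervals left out on chromosomes 7, 10 and 12 were their centromeres and flanks, rounded, from general knowledge (57 to 63, 38 to 43 and 34 to 39 Mb). Arms ended at the last peak. Windows of other autosomes needed peaks in at least 8 of 10 Mb. The permutation test enumerated all assignments of the libraries to treatments, and adjustment was by Benjamini-Hochberg.

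Named were all windows, the 5 strongest regions per arm in all lists (by lowest percentile of −log10 p), the 3 longest empty stretches and the 3 strongest regions per treatment. The chromosome, the lists and the tests were chosen with earlier results of these data known. No sequence or annotation of hg19 was used here. Python 3.11.15 with numpy 2.4.6, scipy 1.17.1 and pandas 2.3.3 was used.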

Additional observations from a re-analysis of the deposited data

How the results depend on the processing

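The long arm stayed below the comparison in number and height of peaks under every alternative run. Its peaks per Mb (DMSO, AI-10-49) were 57.7% and 58.6% of the comparison for peaks of −log10 q 5 or more, 51.03% and 56.8% from 5 reads on, 58.1% and 49.6% from 60 times the background on, and 57.4% and 55.3% with no interval left out. With AI-10-49 they were 63.4% in lists of equal length and 61.3% against all other autosomes except chromosome 8. The short arm had 81.2% and 81.1% with at least 5 reads, 64.0% and 62.1% with no interval left out, 82.2% at 60 times the background (DMSO), and 85.3% with −log10 q of at least 5 and 78.5% against the other autosomes (AI-10-49). With no interval left out, the arms of chromosome 9 also take in 45 to 65 Mb, which held 7, 5, 1 and 2 peaks. Values of that setting thus include length with almost no peaks, and the intervals of the comparison are shorter. Heights of the long arm were 52.0% and 50.7% against the other autosomes and 53.9% and 53.0% with no interval left out. Added after seeing the data, they were 55.1% and 55.5% for the strongest 1 site per Mb, 59.1% and 58.5% for the strongest 5, and 50.7% and 53.4% with sites ranked in the other replicate. Heights of the short arm were 89.5% and 88.7% against the other autosomes, 86.4% and 86.8% with no interval left out and, with DMSO, 96.8% for 1 site per Mb and 97.1% with sites ranked in the other replicate. With 2 libraries per treatment, leaving out either returns the value of the other and is no further check. Those values were 64.9% to 68.8% (DMSO) and 64.6% to 64.8% (AI-10-49) for the long arm's peaks per Mb, and 56.1% to 57.4% and 56.3% to 57.4% for its heights.

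The treatment difference in the share of peaks turned to 0.114 with at least 5 reads and was -0.178 to -0.128 percentage points without each library. It shrank to -0.0316 with −log10 q of at least 5. In lists of equal length it was -0.187, from 60 times the background on -0.274, and with no interval left out -0.158. With replicate numbers as pairs (replicate block) it was -0.153 (exact permutation p = 0.5, the smallest that 2 pairs allow); the labels do not say that a number marks a shared culture. The overlap difference was -0.266 (DMSO) and 0.0513 percentage points (AI-10-49) within classes of reads. Regions held by DMSO only numbered 43 of 497 with −log10 q of at least 5 (8.65%, autosomes 6.397%), 102 of 853 in lists of equal length (11.96%, 7.49%) and 23 of 532 with at least 5 reads (4.32%, 4.17%), and 266 to 696 without a library. For AI-10-49 they were 103 of 695 with at least 5 reads (14.8%, 10.4%), 21 of 500 at 60 times the background (4.2%, 3.01%) and 130 to 244. The cause of these shifts was not tested. Of peaks with 2 or 3 reads in DMSO replicate 1, 30.4% on chromosome 9 and 30.5% in the comparison recurred in DMSO replicate 2.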

Other observations

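The interval left out around the centromere held 55, 58, 40 and 42 peaks, given like all values here in the order of libraries used above. Of these, 20, 26, 23 and 22 lay before 45 Mb, next to the rich last window of the short arm, and 28, 27, 16 and 18 lay after 65 Mb, next to the long arm. From 45 to 65 Mb there were 7, 5, 1 and 2 peaks. Mean reads at the summit over the interval were 5.20, 5.17, 6.85 and 7.52, between those of all long arm peaks (4.89, 4.47, 6.69 and 7.11) and of all short arm peaks (6.49, 5.78, 9.39 and 9.60).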
